A study of Danio rerio with 4 samples.

Results

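The genes described here are 9 transcription factor genes of the epidermal and preplacodal ectoderm, followed in scRNA-seq data of zebrafish embryos at the shield stage. They are *tfap2a*, *tfap2c*, *foxi1*, *dlx3b*, *gata2a*, *gata3*, *klf2b*, *msx1b* and *tp63*. They were chosen by name, together with any entry of the same symbol that carries a numeric suffix, and this gave 9 genes in 10 entries of the 47394 gene entries in the data, since *tp63* has a second entry written *tp63_1*. The 4 libraries held 14455 cells of whole embryos. Sibling 1 and sibling 2 came from siblings, which the sample labels give as wild type, and Mrbm24a 1 and Mrbm24a 2 came from embryos that lack maternal Rbm24a, an RNA-binding protein. The Mrbm24a embryos were laid by mosaic founder mothers that were homozygous for a red fluorescent tag at *rbm24a*, expressed Cas9 from the oocyte promoter of *zpc*, and carried a transgene with 4 guide RNAs against *rbm24a* and a blue marker, and they were picked by the blue marker and the loss of the red protein. For the controls the study writes both siblings and wild-type embryos, without saying whether they carried the tag, Cas9 or the guide transgene. The study states 33 Mrbm24a or wild-type embryos for the dissociation, without saying whether this number is per library or per genotype. Each library is therefore a pool of embryos, and nothing in the labels says that the libraries of a group came from separate clutches. The study describes 2 batches without saying which libraries made up each. P-values therefore measure the spread between these libraries, which may be technical.

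The ectoderm of a gastrula is divided by BMP signals. Ventral cells that receive BMP become epidermis, dorsal cells shielded by BMP antagonists become neural plate, and the border between them gives rise to neural crest and to the preplacodal ectoderm, the source of the ear, nose and lens placodes. AP-2 (*tfap2a*, *tfap2c*), *foxi1* and *gata3* are known in zebrafish as competence factors of the preplacodal ectoderm, *dlx3b* as a factor of the otic and olfactory placodes, *msx1b* as a homeobox gene of the neural plate border, and *tp63* as a p53 family gene of the basal epidermis. Outside these deep cells lies the enveloping layer (EVL), a thin epithelium that becomes the periderm.

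Cells were placed in classes by a value over 0.5 for each of 7 genes, *krt92* (EVL), *her3* (neural), *hesx1* (anterior neural), *noto* (axial), *eve1* (ventral margin), *tbx6l* (paraxial) and *sox32* (endoderm), and cells without any of them formed an eighth class. These classes are broad and overlap. Of all cells, 6980 carried 2 or more of the 7 genes, 4806 carried 1 and 2669 carried none, and *eve1* alone was found in 42.9% of cells and *sox32* in 30.5%. In the *krt92* class, 42.8% of cells carried another of the genes, and in the other 6 classes 76.8% to 89.7% did. Further markers went with the names of the *krt92*, *tbx6l* and *sox32* classes. All 6 EVL markers other than *krt92* were higher in *krt92* cells than in cells with no marker, *msgn1* averaged 618 CPM (counts per 1000000 summed UMIs) in *tbx6l* cells against 141 in cells with no marker, and *sox17* averaged 25.9 CPM in *sox32* cells against 3.36. The *hesx1* class was less clear, since *otx2* averaged 21.0 CPM there and 12.5 CPM in cells with no marker, while *six3b* averaged 6.18 and 17.8 CPM. In the *eve1* class the ventral margin markers, *eve1* included, summed to 2063 to 3494 CPM, and in *tbx6l* cells to 2139 to 3830 CPM. They were higher in *tbx6l* cells within each library. The markers *gsc*, *zic2b* and *mxtx2* were listed at 0. The classes are therefore called by their gene.

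Depth differed between libraries and classes. Median UMIs per cell ran from 9778 in Mrbm24a 1 to 15667 in sibling 1, and 39.3% of the cells of sibling 2 had fewer than 5000 UMIs against 11.97% in sibling 1. Of the cells with no marker 58.0% were below 5000 UMIs, and of the *krt92* cells 73.8%, with 90.0% in sibling 2. Only 16 barcodes occurred in more than 1 library. For shares of cells with a gene, each cell was therefore thinned to 5000 UMIs and shallower cells were left out. Tests of levels were also run on cells with at least 5000 UMIs. Exceptions were the term for class by genotype and the sums without *krt92* cells. The mRNA of *rbm24a* was at 0.438 and 0.469 CPM in siblings and at 0.381 and 0.314 CPM in Mrbm24a libraries, but tags from transcript ends cannot reveal the edit, so these values check no label. All levels below are CPM of the values summed over the cells of a class and library, so they compare 1 gene between cells and not 1 gene with another.

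The 9 genes fell into different patterns over the classes. The genes *tfap2a*, *gata2a*, *gata3* and *klf2b* had their highest mean level in *krt92* cells. *tfap2c*, *foxi1*, *dlx3b* and *tp63* had it in cells with no marker, and *msx1b* had it in *eve1* cells.

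**Figure D1:**
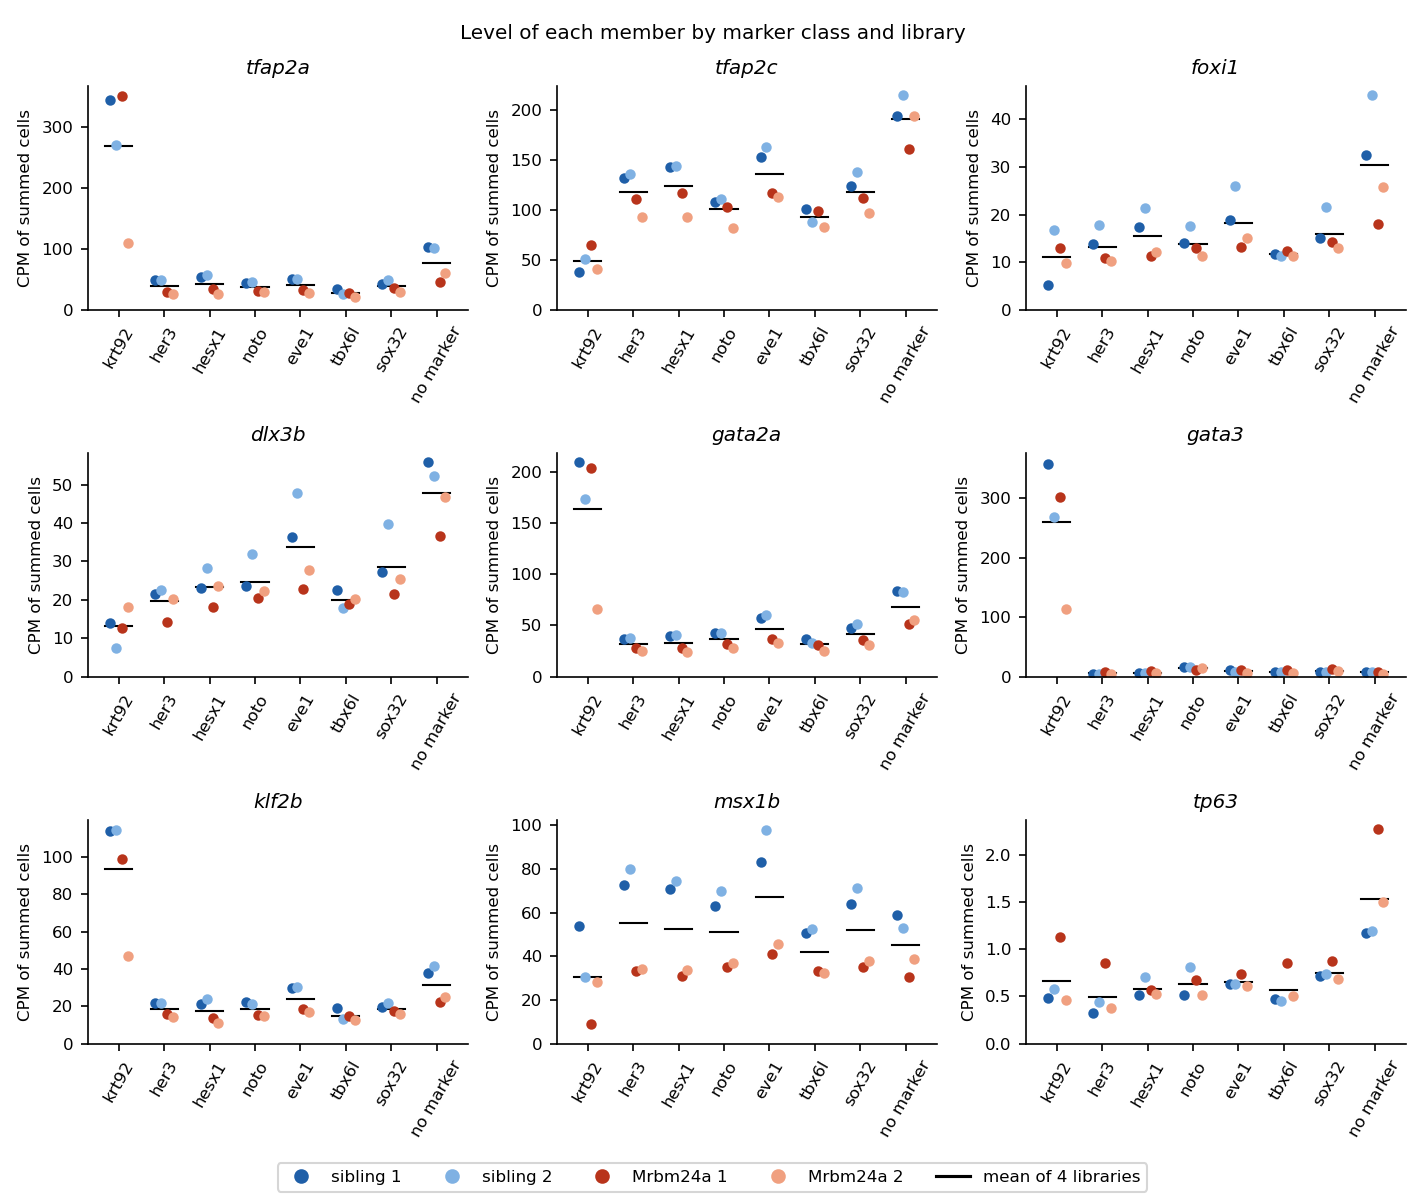
Level of each of the 9 genes (y axis, CPM of the summed cells, each panel with its own scale from 0) in the 7 marker classes and in cells with no marker. Each point is 1 library and each bar the mean of 4 libraries. *gata3* averaged 261 CPM in *krt92* cells and at most 14.3 CPM in any other class, while *tfap2c* averaged 48.7 CPM in *krt92* cells and 191 CPM in cells with no marker.

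*gata3*, a zinc finger factor of non-neural ectoderm, was the gene most restricted to the EVL class by level. It stood at 358 CPM in sibling 1, 269 in sibling 2, 302 in Mrbm24a 1 and 114 in Mrbm24a 2 in *krt92* cells, and at 8.66, 8.54, 8.73 and 4.67 CPM in cells with no marker. The lowest *krt92* value was far above the highest value of any other class, which was 16.9 CPM in *noto* cells of sibling 2. Below *krt92*, the order of the classes by *gata3* was *noto* (14.3 ± 2.63 CPM, SD, n = 4), *sox32*, *eve1*, *tbx6l*, no marker, *hesx1* and *her3* (5.63 ± 1.26 CPM), and each of these neighbours overlapped in their range over libraries.

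*tfap2a* was at 344, 270.0, 351 and 109 CPM in *krt92* cells of sibling 1, sibling 2, Mrbm24a 1 and Mrbm24a 2. In cells with no marker it was at 103, 101, 45.6 and 60.01 CPM, so the ranges did not overlap. *gata2a*, the second GATA factor, was at 209, 174, 204 and 66.3 CPM in *krt92* cells and at 83.7, 83.0, 51.7 and 55.1 CPM in cells with no marker. Here the *krt92* value of Mrbm24a 2 lay below the sibling values of the other class, although *gata2a* was higher in *krt92* cells within each library. *klf2b*, a Krüppel-like zinc finger factor, was at 114, 115, 98.7 and 46.7 CPM in *krt92* cells and at 37.8, 41.6, 22.2 and 25.0 CPM in cells with no marker. Mrbm24a 2 had the lowest level of all 4 genes in *krt92* cells, and the 7 EVL markers, *krt92* included, summed to 14805 CPM in its *krt92* cells against 43397 to 49033 CPM in those of the other 3 libraries. The part of this in the levels was not tested.

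*tfap2c*, the second AP-2 gene, was lowest in *krt92* cells, where *tfap2a* was highest. Among the other classes, both AP-2 genes had their highest mean in cells with no marker and their lowest in *tbx6l* cells. *tfap2c* was at 194, 216, 162 and 195 CPM in cells with no marker and at 37.7, 51.0, 65.2 and 40.9 CPM in *krt92* cells, which was the lowest class and did not overlap with the next (*tbx6l*, 92.8 ± 8.78 CPM). *foxi1*, a forkhead gene, was at 32.6, 45.0, 18.1 and 25.8 CPM in cells with no marker and at 5.18, 16.7, 12.9 and 9.80 CPM in *krt92* cells. *dlx3b* was at 55.8, 52.3, 36.7 and 46.7 CPM in cells with no marker and at 14.1, 7.51, 12.6 and 18.2 CPM in *krt92* cells. For both genes *eve1* cells came second (18.2 ± 5.66 CPM for *foxi1* and 33.7 ± 10.97 CPM for *dlx3b*), and their range overlapped with that of cells with no marker.

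*msx1b* was at 83.1, 98.01, 41.1 and 45.9 CPM in *eve1* cells, and its class means ran from 30.5 ± 18.4 CPM in *krt92* cells to 67.0 ± 27.9 CPM in *eve1* cells, with neighbours in the order overlapping throughout. In cells with 1 marker only, its mean ran from 16.5 CPM with *noto* to 111 CPM with *eve1*. *tp63* was close to the limit of detection. It was at 1.18, 1.20, 2.27 and 1.499 CPM in cells with no marker and *tp63_1* at 2.15, 2.48, 4.27 and 2.70 CPM, and both entries averaged at most 1.25 CPM in every other class. For *tp63* and *tp63_1*, cells with no marker did not overlap with the next class.

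To test these differences, the sums of each class were compared with those of cells with no marker by edgeR's quasi-likelihood test across all genes, with the library as a block, 8 sums a fit and Benjamini-Hochberg adjustment (threshold 0.05). In *krt92* cells *gata3* (log2 fold change 5.37 ± 0.31, standard error, adjusted p = 2.1e-10), *tfap2a* (2.07 ± 0.32, adjusted p = 5.6e-05), *klf2b* (1.86 ± 0.27, adjusted p = 2.9e-05) and *gata2a* (1.498 ± 0.29, adjusted p = 0.00056) were higher. *tfap2c* (−1.66 ± 0.27, adjusted p = 8.1e-05), *dlx3b* (−1.51 ± 0.32, adjusted p = 0.0011) and *foxi1* (−1.14 ± 0.34, adjusted p = 0.018) were lower. That is 4 higher and 3 lower of 8 entries tested, where 20.6% of 11584 genes were higher and 7.57% lower. *msx1b* did not pass the test (−0.34 ± 0.30, adjusted p = 0.42), and both *tp63* entries were below the filter on low counts. The 7 calls kept their direction when the *krt92* class was restricted to cells with none of the other 6 genes, where *gata3* was at 6.04 and *tfap2a* at 2.78. *foxi1* was not past the threshold with a value over 5 for *krt92* (−1.34, adjusted p = 0.062) or without sibling 1 (−0.82) or sibling 2 (−1.13).

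**Figure D2:**
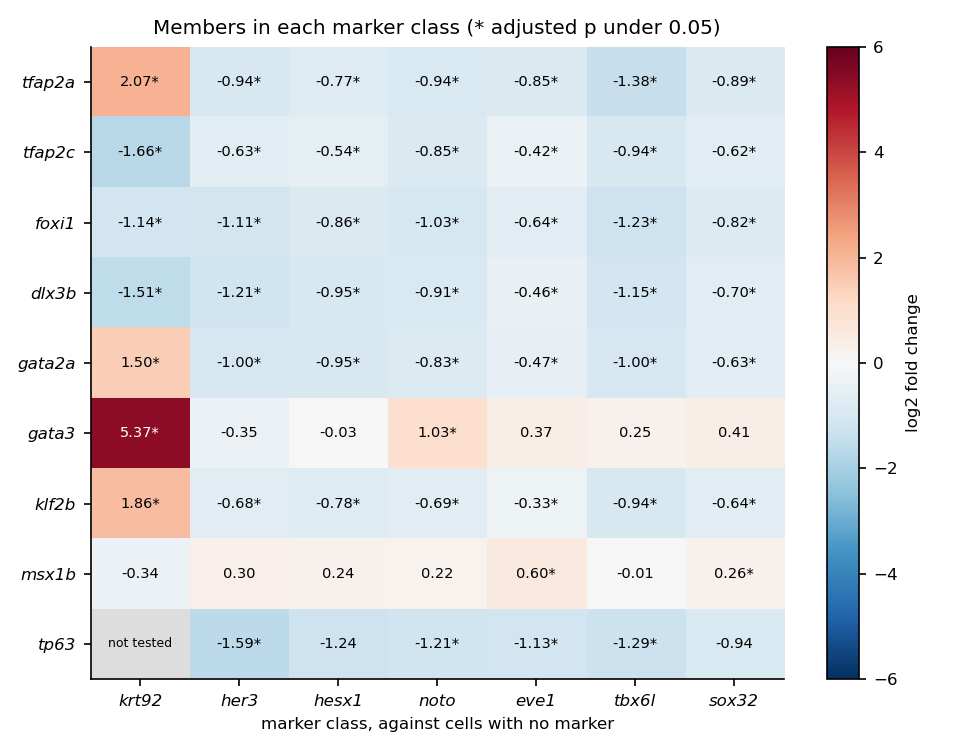
Log2 fold change of each of the 9 genes (rows) in each marker class (columns) against cells with no marker, from edgeR with the library as a block. An asterisk marks an adjusted p under 0.05, blue is lower and red is higher. The *krt92* column holds 4 of the asterisked rises and 3 of the falls, and the other 6 columns hold mostly falls.

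In the other classes most of the 9 genes were lower than in cells with no marker. The entries tested below include *tp63* and *tp63_1*, both close to the limit of detection and highest in cells with no marker. These entries may have passed the filter on low counts only through cells with no marker, and could then only be called lower. Their calls are therefore not read as support. In *tbx6l* cells 8 of 10 entries were lower (median log2 fold change −1.07, against −0.01 for all genes), where 6.71% of 13250 genes were lower and 9.84% higher. *tfap2a* had the largest fall of the genes other than *tp63* (−1.38 ± 0.15, adjusted p = 0.00014), followed by *foxi1* (−1.23 ± 0.18, adjusted p = 0.0012). In *noto* cells 8 entries were lower and *gata3* was higher, where 7.22% of genes were lower and 12.1% higher. In *sox32* cells 7 entries were lower and *msx1b* was higher (0.26 ± 0.08, adjusted p = 0.037), where 6.92% of genes were lower and 10.4% higher.

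In *her3* cells 8 of 10 entries were lower, with *dlx3b* at −1.21 ± 0.08 (adjusted p = 1.8e-05), *foxi1* at −1.11 ± 0.11 (adjusted p = 0.00028) and *gata2a* at −1.0002 ± 0.08 (adjusted p = 3.8e-05), where 3.75% of 13511 genes were lower and 4.4% higher. *tfap2c* was the least lowered of those called (−0.63 ± 0.07, adjusted p = 0.00066), and *msx1b* was at 0.30 ± 0.10 (adjusted p = 0.082). In *hesx1* cells 7 entries were lower, where 3.44% of 12632 genes were lower and 3.97% higher. Without sibling 1 this fell to 4 entries.

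In *eve1* cells 8 entries were lower and *msx1b* was higher (0.60 ± 0.08, adjusted p = 0.0014), where 3.97% of 14594 genes were lower and 7.16% higher. The falls were small, from −0.33 ± 0.08 for *klf2b* to −0.85 ± 0.09 for *tfap2a* among the genes other than *tp63*. Without Mrbm24a 1, 5 of the 9 calls were left.

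Several of these directions depended on the cells with more than 1 marker. Among cells with *eve1* and none of the other 6 genes, *dlx3b* (0.45, adjusted p = 0.0019), *tfap2c* (0.34, adjusted p = 2.6e-05), *klf2b* (0.34, adjusted p = 0.01) and *gata2a* (0.21, adjusted p = 0.046) were higher than in cells with no marker, *msx1b* was at 1.25 (adjusted p = 2.6e-11), and only *tfap2a* was lower (−0.34, adjusted p = 0.0014). Among cells with *noto* alone, *gata3* was lower (−1.36, adjusted p = 0.0013) where it was higher in all *noto* cells, and *msx1b* was lower as well (−1.44, adjusted p = 4.3e-09). The 7 EVL markers summed to 789 to 2278 CPM in all *noto* cells and to 66.1 to 291 CPM in cells with no marker, and their part in the *gata3* value was not tested. In cells with *tbx6l* alone, *msx1b* was lower (−1.41, adjusted p = 5.8e-05). In cells with *sox32* alone 3 entries were called, *tfap2a* (−0.56), *gata2a* (−0.42) and *tfap2c* (−0.32), all lower, and *msx1b* was at −0.27. In cells with *hesx1* alone *foxi1* was at 0.10 (adjusted p = 0.83), and 4 entries were called, all lower. The falls of *tfap2a*, *tfap2c*, *foxi1*, *dlx3b*, *gata2a* and *klf2b* in *her3*, *noto* and *tbx6l* cells kept their direction and their call in cells with that marker alone. In cells with at least 5000 UMIs, 7, 8, 9 and 8 entries passed in the *krt92*, *her3*, *noto* and *tbx6l* classes. All 7 comparisons share the cells with no marker.

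Over the 32 sums of 8 classes in 4 libraries, centred within each library, the genes grouped by likeness of pattern. *tfap2a*, *klf2b* and *gata2a* were among each other's 3 closest of 8639 genes, with Pearson's r of 0.98 between *tfap2a* and *klf2b*, 0.98 between *gata2a* and *klf2b* and 0.97 between *tfap2a* and *gata2a*. The other genes most like *tfap2a*, *gata2a* and *klf2b* were *coro2a* (0.98), *frrs1b* (0.95) and *ppfibp2b* (0.97) in that order. *gata3* was most like *uap1* (0.997), *inpp5b* (0.997) and *golga3* (0.997). *tfap2c* was most like *foxh1* (0.95), *foxn2b* (0.95) and *e2f1* (0.94). *foxi1* was most like *foxp1b* (0.82), *foxn2b* (0.82) and *tfap2c* (0.82), and *dlx3b* was most like *map1aa* (0.87), *cbsb* (0.85) and *tfap2c* (0.85). *msx1b* was most like *zgc:113294* (0.90), *snupn* (0.86) and *eif4ea* (0.86). *tp63* was most like *tp63_1* (0.91), *ulk4* (0.86) and *tlk2_1* (0.81), and *tp63_1* was also like *vps25* (0.87). The values of both *tp63* entries rest on levels close to the limit of detection, below the minimum set for other genes. Between genes of different patterns r ran from −0.82 for *tfap2c* and *gata3* to 0.57 for *tfap2c* and *msx1b*. It was −0.49 for *tfap2a* and *tfap2c*, and near 0 for *tfap2a* and *foxi1* (−0.01) and *foxi1* and *gata2a* (0.04). For *gata2a* and *tp63* it was 0.33, and for *dlx3b* and *msx1b* 0.52. These values describe 32 sums that share cells and libraries, and the *krt92* sums stand far from the others.

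The cells with no marker were then described one by one. After thinning to 5000 UMIs, 335 cells of sibling 1, 190 of sibling 2, 197 of Mrbm24a 1 and 400 of Mrbm24a 2 were left. Of these, 29.3%, 33.2%, 18.3% and 21.0% held 3 or more of the 9 genes, and 36.1%, 33.7%, 37.6% and 36.8% held none. In all cells, 12.7% to 21.1% held 3 or more, and in *krt92* cells 55.2% to 79.1% did. The cells with no marker thus held many cells with none of the 9 genes beside many with several.

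Among cells with no marker, most pairs of the genes were found together more often than the product of their shares would give. Of the 36 pairs, 34 had a mean ratio over 1 in cells with no marker, and 22 were over 1 in all 4 libraries. *tfap2a* and *dlx3b* had a mean ratio of 2.35 ± 0.47 (SD, n = 4), with 7 to 36 cells holding both. *foxi1* and *dlx3b* had 2.32 ± 0.75, *foxi1* and *gata2a* 2.22 ± 0.21, and *tfap2a* and *gata2a* 2.04 ± 0.15. The AP-2 pair *tfap2a* and *tfap2c* had 1.66 ± 0.07, with 29 to 84 cells holding both. Pairs with *gata3* varied widely in these cells, since at most 6 cells of a library held *gata3* with another of the genes, and pairs with *tp63* rested on at most 5 cells. These ratios are descriptions without a test.

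**Figure D3:**
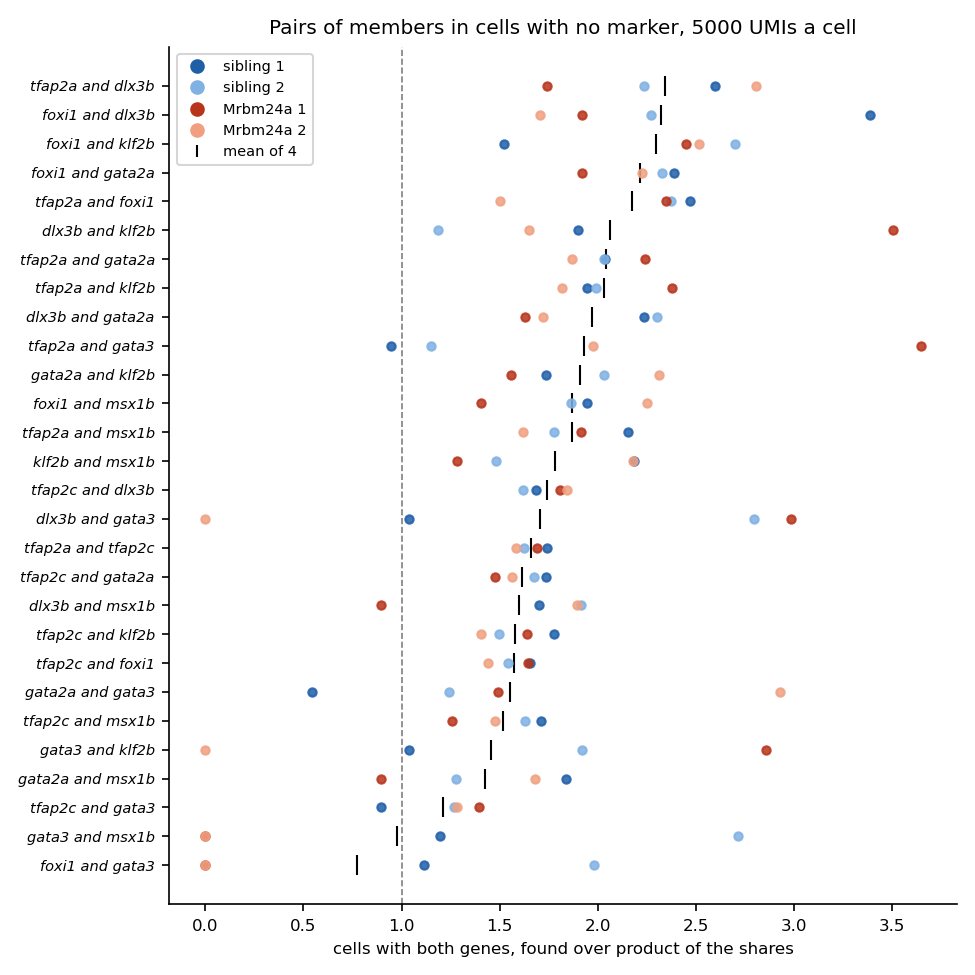
Ratio of the cells holding both genes to the product of their shares (x axis) for the 28 pairs without *tp63* in cells with no marker, each cell thinned to 5000 UMIs. Points are libraries, the tick is the mean of 4 and the dashed line marks 1. Pairs of *tfap2a*, *foxi1*, *dlx3b*, *gata2a* and *klf2b* lie at the top, and pairs with *gata3* spread from 0 to 3.65.

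In all cells the ratio set *gata3* apart. *gata3* was found with *tfap2a* at a ratio of 2.72 ± 0.70, with *klf2b* at 2.53 ± 0.43 and with *gata2a* at 2.44 ± 0.63, each over 1 in all 4 libraries. With *msx1b* it was at 0.872 ± 0.023, below 1 in each library, and with *tfap2c* at 0.878 ± 0.214, above 1 in 1 library. *tfap2a* and *tfap2c* were at 1.60 ± 0.12. Within *krt92* cells fewer pairs exceeded the product of their shares than in all cells. There 15 of 36 pairs had a mean ratio over 1 and 4 were over 1 in all 4 libraries. Pairs with *tp63* or *foxi1* could not be over 1 in every library. In thinned *krt92* cells *tp63* was not found in the siblings and *foxi1* was missing from a sibling library, so the ratio has no value there. *tfap2a* and *tfap2c* were at 0.701 ± 0.226 there, below 1 in each library, with 2 to 11 cells holding both.

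Cells with no marker and at least 5000 UMIs were next split by the 9 genes themselves, into cells with 3 or more (98, 63, 36 and 84 cells in sibling 1, sibling 2, Mrbm24a 1 and Mrbm24a 2) and cells with 0 (121, 64, 74 and 147 cells). Since the split used the 9 genes, they are not read here, and other genes were read from lists. BMP pathway genes were mostly higher in the cells with several of the factors. Of 38 listed BMP genes 23 were tested, 15 were higher and 3 lower (median log2 fold change 0.87, against 0.01 for all genes), where 4.62% of 7092 genes were higher and 7.28% lower. The lists were chosen with earlier results of these data known. Some listed genes had almost no UMIs in the cells of a group, such as *szl* with 6.27 in cells with 0. *six3b* had 3.42 in cells with 3 or more. Such genes passed the filter on low counts only through the other group and could be called in only that direction. The counts of the lists and markers in this comparison are therefore not read as support.

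The BMP ligand gene *bmp4* was at 81.1, 102, 54.1 and 74.7 CPM in the cells with 3 or more of the factors and at 13.1, 10.4, 15.8 and 20.4 CPM in cells with 0 (log2 fold change 2.32 ± 0.18, adjusted p = 6.7e-13). The groups did not overlap. *bmp7a*, the second ligand gene of ventral BMP signalling, ran from 38.1 to 67.4 CPM and from 7.62 to 10.6 CPM (2.50 ± 0.21, adjusted p = 3.9e-12). *szl*, which codes for the feedback regulator Sizzled of the ventral side, ran from 20.1 to 31.2 CPM and from 0.432 to 3.07 CPM (3.93 ± 0.40, adjusted p = 5.6e-10). With 6.27 UMIs over the 4 libraries in cells with 0, *szl* could only be called higher. The 3 genes that were lower included 2 of the dorsal side, *nog1*, a noggin gene (4.47 to 25.2 CPM against 197 to 440.2 CPM, −4.63 ± 0.16, adjusted p = 3.1e-23), and *admp*, a BMP-like ligand of the organizer (17.0 to 34.1 CPM against 238 to 400.2 CPM, −3.63 ± 0.13, adjusted p = 1.4e-22). The third was *id3* (−1.11 ± 0.10, adjusted p = 9.2e-12), an inhibitor of DNA binding gene that is known as a BMP target.

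Of the 27 listed genes of neural ectoderm 10 were tested, and 1 was higher and 6 lower. *zic2a* ran from 3.28 to 8.55 CPM in cells with 3 or more of the factors and from 74.8 to 189 CPM in cells with 0 (−4.35 ± 0.20, adjusted p = 2.7e-19). *irx1b* was lower as well (−2.19 ± 0.18, adjusted p = 3.9e-12), and *six3b*, a forebrain factor, was counted with 3.42 UMIs over the 4 libraries in cells with 3 or more against 171 UMIs in cells with 0. *sox3*, a SoxB1 gene, went the other way and ran from 486 to 587 CPM against 221 to 295 CPM (1.02 ± 0.07, adjusted p = 9.4e-14). Of the 12 listed genes of neural plate border and crest 5 were tested. *snai2* was higher (1.38 ± 0.22, adjusted p = 6.2e-06), and *foxd3* (−2.81 ± 0.27, adjusted p = 1.6e-10), *prdm1a* (−1.76 ± 0.24, adjusted p = 3.6e-07) and *mych* (−0.41 ± 0.11, adjusted p = 0.011) were lower.

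**Figure D4:**
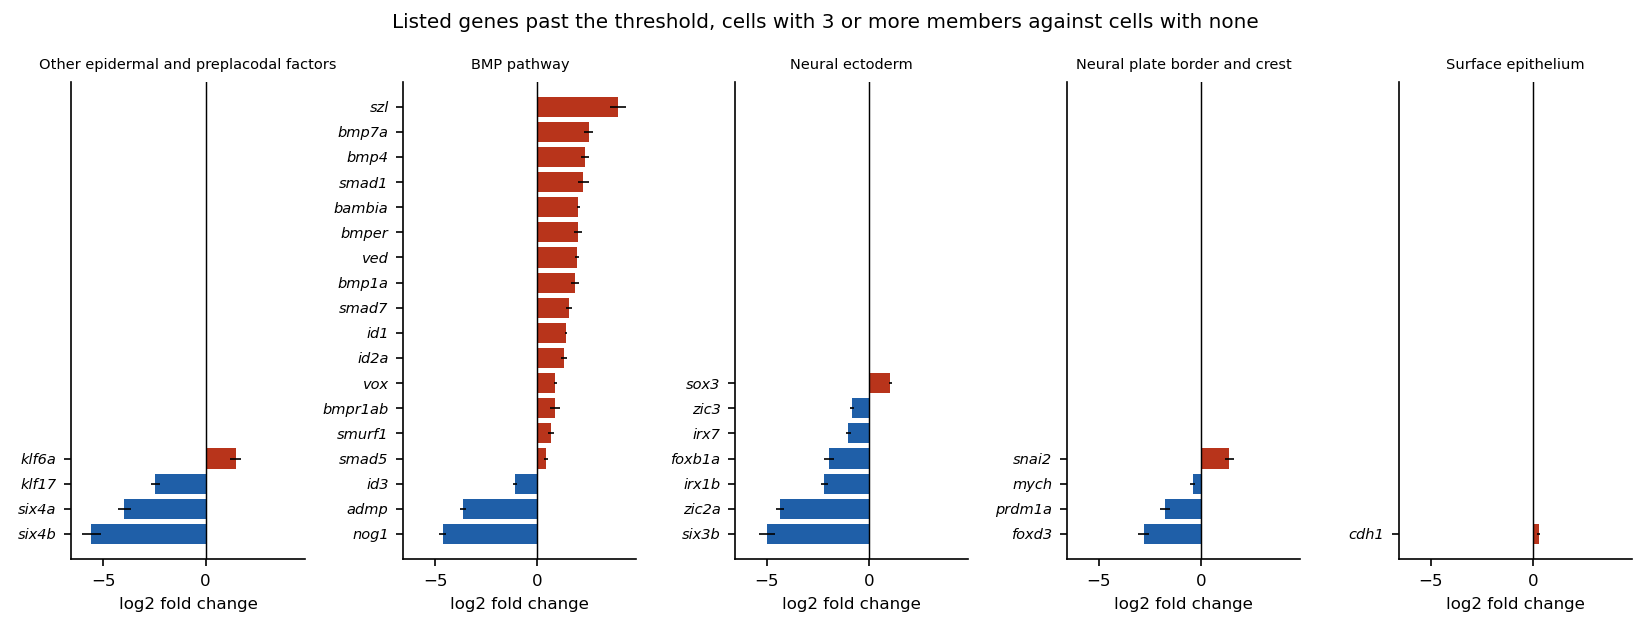
Log2 fold change with its standard error (x axis) of the listed genes past the threshold between cells with 3 or more of the 9 factors and cells with 0, both without a marker, in 5 lists. Red bars are higher and blue bars lower in the cells with 3 or more. The BMP list holds 15 red and 3 blue bars and the neural list 1 and 6.

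Of 38 other epidermal and preplacodal factors 5 were tested. *klf6a* was higher (1.47 ± 0.25, adjusted p = 3.1e-05). *klf17* (−2.46 ± 0.23, adjusted p = 5.2e-11) and *six4a* (−3.97 ± 0.32, adjusted p = 1.6e-12) were lower, and *six4b* was counted with 1.74 UMIs over the 4 libraries in cells with 3 or more against 135 UMIs in cells with 0. *six4a* had 8.54 UMIs in cells with 3 or more, so *six4a* and *six4b* could only be called lower. The *six4a* and *six4b* genes code for homeobox factors of a family whose members are known in the preplacodal ectoderm. Of 24 listed genes of surface epithelium only 4 were tested, and *cdh1*, the gene of E-cadherin, was slightly higher (0.29 ± 0.07, adjusted p = 0.0041), a call that DESeq2, a split at 2 or more factors and thinning to 2500 UMIs did not make. The call of *mych* was not made by DESeq2 or limma, or without sibling 1 (−0.19). The cells with 0 of the factors also held more RNA of other cell types. In the cells with 3 or more, 3 of 3 tested paraxial, 2 of 2 axial and 3 of 4 endodermal markers were lower, where 7.28% of all genes were. *foxa2* counts in both the axial and the endodermal list. Some of these markers could only be called lower, such as *fgf8a* with 7.36 UMIs and *mixl1* with 6.43 UMIs in cells with 3 or more. Among 4 tested ventral margin markers 2 were higher and 2 lower. *foxa2* was lower in the cells with 3 or more by −3.52 ± 0.24 and the paraxial gene *msgn1* by −3.48 ± 0.13. Of the germ cell markers, *nanos3* and *ddx4* were tested and were lower (−4.00 ± 0.51 and −1.30 ± 0.12). *nanos3* ran from 7.19 to 21.7 CPM in cells with 3 or more and from 2.92 to 1081 CPM in cells with 0. It was therefore not lower in every library. Over whole libraries *nanos3* was lower in Mrbm24a (−3.94 ± 0.12). The part of these cell type markers in the lists above was not tested.

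The same lists were read between *krt92* cells and cells with no marker. Of the other epidermal factors 16 were tested and 12 were higher, with none lower (median 3.83, against −0.04 for all genes), where 20.6% of all genes were higher and 7.57% lower. Several of the 12 had almost no UMIs in cells with no marker, such as *grhl1* with 11.4 and *grhl2a* with 3.70. They passed the filter on low counts only through *krt92* cells, so they could only be called higher. The count is therefore not read as support. Some markers of other cell types were higher in *krt92* cells as well. These were 2 of 6 tested endodermal, 2 of 5 paraxial and 2 of 5 germ cell markers, with none of these lists holding a lower one. The rises of *sox32* and *tbx6l* are set by the rule. The others were *sox17* (1.81 ± 0.50, adjusted p = 0.011), *fgf8a* (1.89 ± 0.31, adjusted p = 0.00011), *ca15b* (1.39 ± 0.46, adjusted p = 0.030) and *ddx4* (1.06 ± 0.26, adjusted p = 0.0040). The 5 germ cell markers summed to 1776 CPM in *krt92* cells of sibling 2 and to 220 to 440.5 CPM in those of the other 3 libraries. Their part in the lists was not tested. The epidermal factors that were higher included 4 Grainyhead genes. *grhl1* ran from 114 to 366 CPM in *krt92* cells and from 0 to 1.98 CPM in cells with no marker (8.89 ± 0.59, adjusted p = 9.2e-10). *grhl2a* ran from 56.3 to 190 CPM against 3.70 UMIs in all cells with no marker. *grhl3* had 24.0 UMIs in *krt92* cells and 0 in cells with no marker, which makes it at least 14.4-fold higher when 3 UMIs are allowed over the 4 libraries. *grhl2b* was at 1.996 ± 0.69 (adjusted p = 0.037), below Krüppel-like genes such as *klf5l* (6.18 ± 0.44, adjusted p = 2.1e-09) and *klf5a* (5.94 ± 0.84, adjusted p = 1.7e-05). All 17 tested genes of surface epithelium were higher, a list that contains *krt92* itself, with *cyt1l* at 9.94 ± 0.80 (adjusted p = 1.2e-08) and *cyt1* at 9.92 ± 0.86 (adjusted p = 3.2e-08). Both are keratin genes of the EVL. In this list too some genes could only be called higher, such as *cldnf* with 4.43 UMIs and *krt4* with 8.54 UMIs in cells with no marker.

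Of 32 BMP genes tested in the *krt92* class 7 were higher and 5 lower, where 20.6% of all genes were higher and 7.57% lower, so the share of BMP genes that were higher was near that of all genes. *id4* (8.23 ± 0.58, adjusted p = 1.7e-09), the receptor gene *bmpr2b* (3.51 ± 0.73, adjusted p = 0.0011) and *tll1* (2.50 ± 0.77, adjusted p = 0.021) were higher. In cells with no marker they had 7.73, 6.46 and 11.7 UMIs in that order. They passed the filter on low counts only through *krt92* cells, so they could only be called higher. These calls are not read as support. *id3* (−1.42 ± 0.38, adjusted p = 0.0090), *nog1* (−1.35 ± 0.30, adjusted p = 0.0021) and *bmp7a* (−1.26 ± 0.39, adjusted p = 0.022) were lower. Of 13 neural genes 3 were higher and 5 lower. Of the higher ones the difference of *hesx1* and *her3* is set by the rule, which admits only cells at or below 0.5 of each to the class with no marker, and *foxb1a* was at 1.21 ± 0.34 (adjusted p = 0.011). *six3b* (−1.73 ± 0.47, adjusted p = 0.0087), *sox2* (−1.64 ± 0.25, adjusted p = 4.0e-05) and *irx1b* (−1.63 ± 0.39, adjusted p = 0.0038) were lower. Of 6 border genes 3 were lower, *snai2* (−1.45 ± 0.35, adjusted p = 0.0042), *prdm1a* (−1.43 ± 0.50, adjusted p = 0.041) and *mych* (−1.01 ± 0.28, adjusted p = 0.010). Without sibling 1 the calls of *id3* (−0.94), *bmp7a* (−1.01), *foxb1a* (0.85), *snai2* (−1.13), *prdm1a* (−0.87) and *mych* (−0.85) were lost. Without sibling 2 those of *tll1* (2.02) and *prdm1a* (−1.55) were lost, without Mrbm24a 1 those of *foxb1a* (0.98) and *mych* (−0.88), and without Mrbm24a 2 those of *bmp7a* (−1.07) and *prdm1a* (−1.23).

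The genotypes were compared over whole libraries, 2 against 2, by the same test without a block. Of the 9 genes 4 were lower in Mrbm24a embryos, *msx1b*, *tfap2a*, *gata2a* and *klf2b*, which is 4 of 10 entries where 0.946% of all genes tested were lower. *msx1b* was at 70.5 and 77.7 CPM in siblings and at 35.96 and 39.5 CPM in Mrbm24a (log2 fold change −0.93 ± 0.09, adjusted p = 0.011). *tfap2a* was at 61.9 and 61.3 CPM against 37.1 and 36.1 CPM (−0.71 ± 0.08, adjusted p = 0.019). *gata2a* was at 55.8 and 55.4 CPM against 36.5 and 34.9 CPM (−0.60 ± 0.08, adjusted p = 0.030), and *klf2b* at 28.5 and 29.9 CPM against 18.5 and 19.0 CPM (−0.60 ± 0.08, adjusted p = 0.030). In each of the 4 genes both Mrbm24a libraries lay below both sibling libraries, as they did in 28.5% of the 17768 genes.

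**Figure D5:**
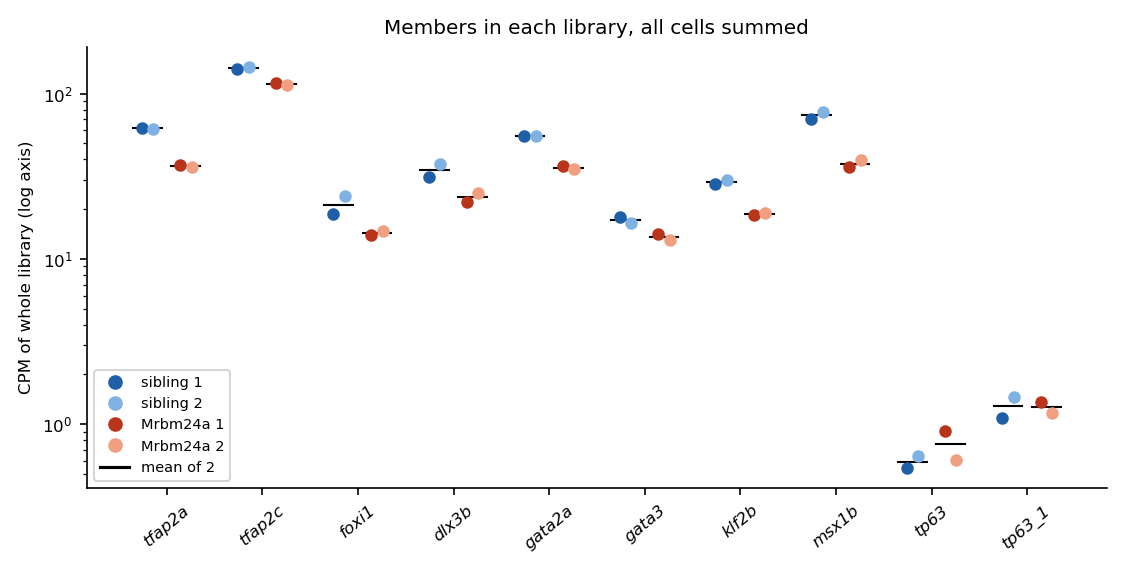
Level of the 10 entries (y axis, CPM of the whole library, log axis) in each library. Points are libraries and bars the mean of 2. For the 8 genes other than *tp63*, both Mrbm24a points lie below both sibling points, an order that 28.5% of all genes showed, and for the *tp63* entries the points are mixed.

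The other genes did not pass the test. *foxi1* was at 18.7 and 24.0 CPM against 13.9 and 14.7 CPM (−0.53 ± 0.11, adjusted p = 0.089), *dlx3b* at 31.1 and 37.4 CPM against 22.2 and 25.2 CPM (−0.48 ± 0.10, adjusted p = 0.091), *tfap2c* at 141 and 145 CPM against 117 and 113 CPM (−0.27 ± 0.08, adjusted p = 0.17) and *gata3* at 18.02 and 16.4 CPM against 14.2 and 13.1 CPM (−0.30 ± 0.11, adjusted p = 0.25). *tp63* (0.37 ± 0.29, adjusted p = 0.55) and *tp63_1* (0.03 ± 0.21, adjusted p = 0.96) were below 1.5 CPM in every library. The median of the 10 entries was −0.51, against 0.00 for all genes. Of the 4 calls none was left without Mrbm24a 1 and only *msx1b* without Mrbm24a 2, while 7 entries were called without sibling 1 and 8 without sibling 2.

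Several values moved with genotype beside the factors. In sums of whole libraries a lower level can mean fewer cells of a type or less RNA per cell, and these cannot be told apart. The 7 EVL markers summed to 1720 and 1902 CPM in siblings and to 1057 and 1130 CPM in Mrbm24a, and *cyt1* and *krt4* were lower. In the same test without *krt92* cells, chosen after seeing the data, *msx1b* was at −0.95 (adjusted p = 0.021) and *tfap2a* at −0.79 (adjusted p = 0.025). There *gata2a* was at −0.63 (adjusted p = 0.044) and *klf2b* at −0.62 (adjusted p = 0.045). *gata3*, which was called in neither fit, was at 0.04 there and at −0.30 with all cells. The neural markers summed to 657 and 705 CPM against 521 and 540.4 CPM, with *her3* at −1.15 ± 0.08 (adjusted p = 0.0042). The 5 stress markers summed to 60.9 and 64.3 CPM in siblings and to 92.7 and 84.5 CPM in Mrbm24a, with *foxo3b*, *phlda3* and *cdkn1a* higher. The 5 germ cell markers summed to 284 and 269 CPM against 240 and 204 CPM, and 4 of them were lower. Of the 38 other epidermal factors 23 were tested and 1 was lower, *msx1a* (−1.06 ± 0.13, adjusted p = 0.020), the paralog of *msx1b*. Of the 34 tested BMP genes *vox* was lower (−0.62 ± 0.09, adjusted p = 0.036), and of 10 border genes *pax3a* (−0.97 ± 0.15, adjusted p = 0.038). The part of the EVL, neural, stress and germ cell values in the result was not tested.

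At equal depth per cell, both the share of cells with a gene and the UMIs in those cells were lower for the 4 genes in Mrbm24a. After thinning to 5000 UMIs, *msx1b* was found in 22.8 ± 0.9% of sibling cells and 15.1 ± 1.3% of Mrbm24a cells (SD, n = 2), *tfap2a* in 18.9 ± 1.0% and 14.0 ± 0.2%, *gata2a* in 18.9 ± 0.1% and 14.8 ± 0.6%, and *klf2b* in 11.8 ± 0.4% and 8.89 ± 0.43%. Each of these did not overlap between genotypes, with an exact permutation p of 0.33 (two-sided), the smallest that 2 against 2 libraries allow. The lower share was not particular to the 4 genes, since 7 of the 9 genes were lower in Mrbm24a without overlap. How many of all genes did so at equal depth was not counted, so neither these shares nor the UMIs per cell are read as a trait of the 9 genes. By level over whole libraries, 28.5% of 17768 genes had both Mrbm24a libraries below both siblings. The cells that held *tfap2a* had a mean of 1.59 and 1.61 of its UMIs in siblings and 1.24 and 1.33 in Mrbm24a, and those that held *msx1b* had 1.52 and 1.65 against 1.28 and 1.31. This mean was also lower in both Mrbm24a libraries for *tfap2c*, *foxi1* and *dlx3b*, while for *gata3* and *tp63* the genotypes overlapped. In cells with no marker *tfap2a* was found in 29.5 ± 0.8% against 19.3 ± 1.4%. The 5 germ cell markers summed to 619 and 553 CPM in these cells in siblings and to 225 and 173 CPM in Mrbm24a, and their part in the shares was not tested.

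Within the classes, 8 entries were called over 8 fits, all lower in Mrbm24a. *msx1b* was lower in *her3* cells (72.7 and 80.2 CPM against 33.5 and 34.1 CPM, −1.12 ± 0.11, adjusted p = 0.0020), *hesx1* cells (−1.11 ± 0.14, adjusted p = 0.0018), *noto* cells (−0.81 ± 0.11, adjusted p = 0.025) and *sox32* cells (−0.85 ± 0.12, adjusted p = 0.014). *tfap2a* was lower in *her3* cells (49.2 and 49.5 CPM against 28.5 and 25.2 CPM, −0.83 ± 0.11, adjusted p = 0.0092), *hesx1* cells (−0.85 ± 0.14, adjusted p = 0.011) and cells with no marker (103 and 101 CPM against 45.6 and 60.01 CPM, −0.97 ± 0.14, adjusted p = 0.037). *klf2b* was lower in *hesx1* cells (−0.83 ± 0.15, adjusted p = 0.019). The share of all genes that were lower was 0.516% in *her3*, 0.623% in *hesx1*, 0.345% in *noto*, 0.448% in *sox32*, 0.19% in no marker, 0.0186% in *eve1*, 0.0955% in *tbx6l* and 0% in *krt92* cells. The classes share cells, so these calls are not separate evidence. The genes that define the classes moved with genotype too, with *her3* (−1.15) and *noto* (−0.58) lower over whole libraries. Cells with *her3* made up 32.0% and 23.1% of sibling cells and 19.4% and 20.2% of Mrbm24a cells, and cells with *sox32* 27.7% and 21.2% against 44.9% and 29.2%. A class can therefore hold different cells in the 2 genotypes, and this cannot be told apart from a change within the same cells. Without Mrbm24a 1 only 1 of the 8 calls was made and without Mrbm24a 2 only 3, against 24 without sibling 1 and 19 without sibling 2.

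None of the 10 entries was called in *krt92*, *eve1* or *tbx6l* cells, where edgeR gave 0, 7 and 1 entries at an unadjusted p under 0.05. In *eve1* cells *msx1b* was at 83.1 and 98.01 CPM against 41.1 and 45.9 CPM (−1.01 ± 0.11, adjusted p = 0.098). Whether the genotypes differed more in a class than in cells with no marker was tested with a term for class by genotype. No entry passed in any of the 7 classes, where the share of all genes called was 0% for *krt92*, 1.58% for *her3*, 0.689% for *hesx1*, 0.259% for *noto*, 0.0959% for *eve1*, 0.128% for *tbx6l* and 1.83% for *sox32*. The lowest adjusted p was that of *tfap2a* in *sox32* cells (0.53, adjusted p = 0.066), and from 0 to 5 entries a class had an unadjusted p under 0.05.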

How the data were processed

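Droplet scRNA-seq (10x 3′ v3.1) of 4 libraries was used. The authors trimmed reads with Trimmomatic and counted UMIs with Cell Ranger. DecontX then took out ambient RNA, Scrublet took out doublets, and barcodes beyond 5 median absolute deviations were dropped. For this reason the deposited expected counts hold decimals, and no scaling was applied. The submitters' processing notes name the build GRCz10. Totals per library ran from 40176500 to 61973400 UMIs, which limits low genes. Each library's genotype came from its label.

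Here all cells were kept, without a further doublet caller. The 9 genes and the gene lists were chosen with earlier results of these data known. Sums per class and library were rounded and tested across all genes by edgeR 4.0.16 under R 4.3.3, using its quasi-likelihood test after filterByExpr and TMM factors, with Benjamini-Hochberg adjustment and a threshold of 0.05. The standard errors given with it are the absolute log2 fold change over the square root of the test's F statistic. They therefore restate the test. Alternatives were DESeq2 1.42.0, limma 3.58.1 on log2(CPM + 1), RLE factors, no filter, a block for the replicate number, leaving out single libraries, deep cells, cells with 1 marker, and marker values over 1.5 or 5. Where a genotype keeps 1 library, that library is assumed to vary like the other group. The value over 5, the sums without *krt92* cells and the class by genotype term were chosen after seeing the data. A gene counts as found above 0.5. Thinning drew 5000 UMIs per cell without replacement (numpy 2.4.6), and permutation tests used scipy 1.17.1. Likeness used log2(CPM + 5) of genes with a mean of at least 5 CPM, and the 10 entries were kept at any level. On simulated data edgeR was run in the layout of 3 fits only. These were the genotypes over whole libraries, *krt92* cells against cells with no marker, and cells with 3 or more factors against cells with 0. Named are the 9 genes, the 3 genes most like each, and from each list up to 3 called genes per direction with the largest change in the comparisons of cells with 3 or more factors and of *krt92* cells. *grhl2b*, *klf5l*, *klf5a* and the listed genes named for the genotypes or as markers were chosen after their values were seen.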

Additional observations from a re-analysis of the deposited data

Results flagged for a closer look

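Over the 4 libraries of each class, 5 of 80 levels held a library that stood apart from the other 3, where chance flags about 1 in 20 groups. *gata3* in *her3* cells was highest in Mrbm24a 1 at 7.51 CPM, and in cells with no marker it was lowest in Mrbm24a 2 at 4.67 CPM. *tp63* in *tbx6l* cells was highest in Mrbm24a 1 at 0.858 CPM. *tp63_1* in Mrbm24a 1 was lowest in *hesx1* cells at 0.697 CPM and highest in *tbx6l* cells at 1.12 CPM. These 4 libraries hold 2 genotypes, so a library can also stand apart from the other genotype.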

How the results depend on the processing

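Between genotypes, 195 genes were called over whole libraries. This became 1815 without the filter on low counts, 437 with DESeq2 and 67 without *krt92* cells, and from 8 to 3689 with 1 library left out (8 without Mrbm24a 1, 59 without Mrbm24a 2, 1040 without sibling 2 and 3689 without sibling 1). Of the 10 entries 4 were called, and 0 to 8 with 1 library left out. Within classes 8 calls became 24 without the filter, 16 with DESeq2 and 1 to 24 with 1 library left out. With the replicate number as a block, 547 genes, 6 entries (*foxi1* and *dlx3b* beside the 4) and 19 entries within classes were called. The deviations of same-numbered libraries correlated at 0.0996 over 17768 genes, with only 2 pairs, and the labels do not say that the numbers pair them. Against cells with no marker, 4 entries were called in cells with *hesx1* alone, 3 in cells with *sox32* alone, 4 to 7 in *hesx1* cells and 5 to 10 in *eve1* cells with 1 library left out. The mean share of cells with no marker that held a gene fell from 17.3% to 10.1% when thinned to 2500 UMIs.

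Of the values for single genes, 28 changed direction. In cells with 1 marker only, the log2 fold change in *eve1* cells was 0.34 for *tfap2c*, 0.17 for *foxi1*, 0.45 for *dlx3b*, 0.21 for *gata2a*, 0.34 for *klf2b* and −0.16 for *gata3*, that of *gata3* was −1.36 in *noto* and −0.12 in *tbx6l* cells, that of *msx1b* was 0.10 in *krt92*, −1.44 in *noto* and −0.27 in *sox32* cells, and that of *foxi1* was 0.10 in *hesx1* cells. With a marker value over 5, *gata3* was at −0.16 in *eve1* and −0.20 in *tbx6l* cells, and *msx1b* at −0.10 in *hesx1*, −0.58 in *noto* and −0.25 in *sox32* cells. *gata3* in *hesx1* cells was at 0.015 without the filter, at 0.18 in cells with at least 5000 UMIs and between −0.30 and 0.14 with 1 library left out. *msx1b* in *tbx6l* cells was at 0.049 without the filter and between −0.074 and 0.043 with 1 library left out. Between genotypes *gata3* was at 0.0397 without *krt92* cells, and *tp63_1* at −0.0092 with limma and between −0.13 and 0.18 with 1 library left out. The cause was not tested. Of the other values for single genes, 1265 kept direction and side of the threshold, 89 lost the call and 31 gained it.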
